A study of Mus musculus with 42 samples.

Results

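The positive limb of the circadian clock was described in liver through its 3 genes, Arntl (also called Bmal1), Clock and Npas2. They were taken by gene name from a table of 54532 genes, and all 3 were present and passed the filter on low counts. The BMAL1 protein, encoded by Arntl, pairs with CLOCK or with its close relative NPAS2, and the pair binds E-box sequences (CACGTG) near genes that include the period and cryptochrome repressors, the REV-ERB receptors and Dbp. The period and cryptochrome proteins then hold the pair back. The REV-ERB receptors repress Arntl and Npas2 through RORE sequences, at which the ROR receptors activate. In the liver this loop sets daily rhythms in glycogen, lipid, haem and NAD metabolism.

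The libraries came from female mice (C57BL/6 in the labels, C57BL/6NHsd in the study's methods) that were weaned at 3 weeks of age and fed for 3 weeks either AIN93G, the standard diet in which soybean oil supplied 16% of the energy, or a modified diet in which it supplied 45% (the HFD). Livers were collected at Zeitgeber time (ZT, hours after lights on) 0 and every 4 hours until ZT 24, with lights off at ZT 12, and 3 libraries were made for each diet at each time. By the study's methods the collection ran over a period longer than 24 hours. The labels do not say from which cycle each library came. The 42 libraries held 14592481 to 21368409 counts each. The labels give each library as its own sample but do not state that each is a different animal, so p-values measure the spread between these libraries. Values below are CPM, each library's counts scaled to one common total, with TMM, a factor per library that offsets differences in RNA composition, and each replicate is numbered within its group.

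Not every library read as liver. Alb, the serum albumin gene of hepatocytes, was at 73580 to 129700 CPM in 32 libraries and at 11.7 to 67.0 CPM in the other 10, where Adipoq, the adipocyte hormone gene, was at 883.5 to 1997 CPM against 0 to 5.59 CPM. The 15 hepatocyte markers summed to 139600 to 207600 CPM in the 32 and to 399.4 to 930.7 CPM in the 10, and the 10 adipocyte markers summed to 23.5 to 97.7 CPM and to 10380 to 18560 CPM. The 10 are called adipocyte-rich here and were all 3 libraries of AIN93G ZT 16, all 3 of AIN93G ZT 20, 2 of AIN93G ZT 24 and 2 of HFD ZT 24. Tests of liver used AIN93G ZT 0, 4 and 8 and HFD ZT 0, 4, 8, 16 and 20 (24 libraries), 8 groups in which all 3 libraries were liver. ZT 12 was left out of these tests although its libraries were liver, because earlier results showed them far apart in clock genes, so the errors and p-values do not hold that spread. Calls that were lost when all 32 livers were fitted are therefore given as well. Whether the time labels of ZT 12 and ZT 24 match their libraries cannot be told from the files, and both are given library by library. Some library names share a number between time groups of 1 diet, and the labels do not say what the number stands for.

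Arntl (ENSMUSG00000055116) lies on the plus strand at chr7:113207465-113314126, Clock (ENSMUSG00000029238) on the minus strand at chr5:76209868-76304792 and Npas2 (ENSMUSG00000026077) on the plus strand at chr1:39193731-39363236, in mm10 coordinates. RefSeq promoter windows (GRCm38.p6, 250 bases before to 50 after a start) were found for 3 of 3 genes. The RORE core, TAGGTCA or TGGGTCA on either strand, was present in 6.45% of 32851 windows and, of the 3 genes, in Arntl. The form with 1 open base, TAGGTNA, which was spelled after reading the Arntl window and overlaps that core, was present in 8.29% of windows. It occurred at 2 places in Arntl, both in exon 1 of transcript Arntl-201 and in its untranslated region by the GENCODE vM21 annotation. Counted from the later of the RefSeq starts, the TAGGTTA site is at -6, before that start, and the TAGGTCA site is at position 31. They are printed because REV-ERB and ROR receptors are known to bind there, with the match in capitals.
Arntl RORE at chr7:113207493-113207522: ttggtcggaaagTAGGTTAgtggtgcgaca
Arntl RORE at chr7:113207529-113207558: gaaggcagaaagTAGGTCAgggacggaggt
The windows of Clock and Npas2 held neither the RORE nor the E-box letters, and that of Arntl held no E-box. These are letter matches in short windows and do not show binding.

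The E-box CACGTG, to which the BMAL1 pairs bind, was present in 7.15% of windows. Of the period and cryptochrome repressors with a window, 5 of 7 held it (Per1, Cry1, Ciart, Bhlhe41 and Cipc). Of the PAR bZIP factors and Nfil3, 1 of 4 held it, and of the REV-ERB and ROR receptors and the metabolic targets none did (0 of 4 and 0 of 5). Sequences from the repressor and PAR bZIP lists are shown for comparison, in the direction of the gene and with the E-box in capitals.
Per1 E-box at chr11:69098775-69098796: cccaagtcCACGTGcagggatg
Cry1 E-box at chr10:85185101-85185122: ccggtggtCACGTGgggtgcat
Ciart E-box at chr3:95882331-95882352: tctagagtCACGTGttgccggt
Tef E-box at chr15:81802538-81802559: tgtggctcCACGTGctgcagct

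During the light phase all 3 genes fell from ZT 0 to ZT 8 on both diets, Npas2 the most and Clock the least. Arntl, the partner that both pairs share, was at 46.9, 43.9 and 46.8 CPM in the AIN93G libraries of ZT 0 and at 51.0, 43.8 and 51.2 CPM in those of the HFD. At ZT 4 it was at 19.5, 37.99 and 30.1 CPM on AIN93G and at 17.4, 19.7 and 18.2 CPM on the HFD. At ZT 8 it was at 1.38, 1.81 and 2.53 CPM on AIN93G and at 2.79, 2.36 and 1.71 CPM on the HFD. The 3 time points did not overlap on either diet, and on the log2 scale the larger step came between ZT 4 and ZT 8.

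Npas2, the alternative partner of BMAL1, followed the same order with a larger range. At ZT 0 it was at 31.4, 34.3 and 22.9 CPM on AIN93G and at 24.97, 19.7 and 19.5 CPM on the HFD. At ZT 4 it was at 4.07, 10.3 and 7.54 CPM on AIN93G and at 2.26, 2.68 and 1.78 CPM on the HFD. At ZT 8 the AIN93G libraries held 4, 3 and 2 counts and the HFD libraries held 0, 1 and 0 counts, which is at or near the limit of detection at this depth. Summed over libraries, Npas2 went from 1328 counts at ZT 0 to 9 at ZT 8 on AIN93G, a ratio of 144 after scaling (exact 95% interval 75.4 to 315), and from 985 to 1 count on the HFD, a ratio of 975 with an interval of 174.6 to 38550. These intervals cover counting error only.

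Clock, the usual partner of BMAL1, moved within a narrow range. At ZT 0 it was at 85.7, 97.6 and 96.1 CPM on AIN93G and at 85.8, 103 and 107 CPM on the HFD. At ZT 4 it was at 73.6, 95.2 and 92.7 CPM on AIN93G and at 81.1, 64.6 and 77.9 CPM on the HFD. At ZT 8 it was at 48.8, 39.1 and 28.2 CPM on AIN93G and at 45.4, 42.7 and 63.7 CPM on the HFD. The ZT 8 libraries lay below every ZT 0 and ZT 4 library on both diets.

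**Figure D1:**
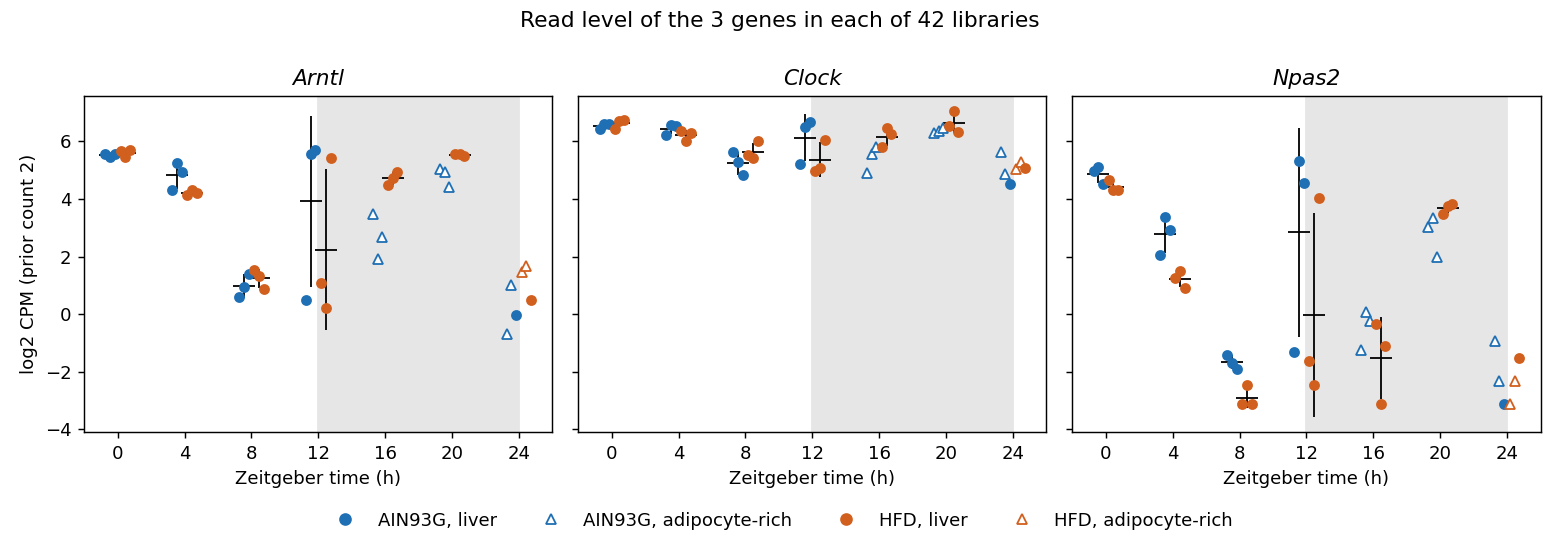
Level of Arntl, Clock and Npas2 in each library (log2 CPM with a prior count of 2, vertical axis) by Zeitgeber time in hours (horizontal axis, dark phase shaded), with filled circles for liver, open triangles for adipocyte-rich libraries, and black bars for the mean ± SD of groups with 3 liver libraries. Arntl and Npas2 were low at ZT 8, the ZT 12 libraries split between high and low values, and every ZT 24 library was low in Arntl.

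By edgeR's quasi-likelihood test over the 24 liver libraries, averaged over the diets, ZT 8 was lower than ZT 0 by a log2 fold change of -4.50 ± 0.16 (SE) for Arntl (adjusted p = 4.93e-14). The log2 fold change was -8.29 ± 0.40 for Npas2 (adjusted p = 9.98e-12), a fitted value that rests on almost no counts at ZT 8, and -1.11 ± 0.15 for Clock (adjusted p = 2.5e-05). In this comparison 6.91% of the 12056 genes tested were called lower and 13.8% were called in either direction. All 3 genes also passed as lower within AIN93G and within the HFD, where 2.46% and 2.75% of genes did, and the log2 fold changes of Clock were -1.26 ± 0.21 (adjusted p = 0.000846) and -0.96 ± 0.21 (adjusted p = 0.00915). The Clock call on the HFD was lost without HFD ZT 8 replicate 1, at -0.89 (adjusted p = 0.0522), and when all 32 livers were fitted, at -0.96 (adjusted p = 0.0929).

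The earlier step, ZT 4 minus ZT 0, was called for Arntl (log2 fold change -1.03 ± 0.13, adjusted p = 0.000118) and for Npas2 (-2.64 ± 0.25, adjusted p = 1.62e-06), where 0.589% of genes were called lower. For Clock it was -0.26 ± 0.15 (95% interval -0.56 to 0.05, adjusted p = 0.505). The later step, ZT 8 minus ZT 4, was called lower for all 3 genes, as it was for 2.89% of genes, at -3.47 ± 0.16 for Arntl, -5.65 ± 0.44 for Npas2 and -0.86 ± 0.15 for Clock (adjusted p = 7.47e-12, 7.59e-08 and 0.00117). The ZT 4 minus ZT 0 calls of Arntl and Npas2 were lost when the ZT 12 and ZT 24 libraries joined the fit (all 32 livers, adjusted p = 0.522 and 0.105), although the differences stayed at -1.03 and -2.63.

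Divided by the gene length that the count table gives, the levels of the 3 genes were closer together at ZT 0 than at ZT 8. On AIN93G at ZT 0 the mean level was 6.10 CPM per kilobase for Arntl, 6.79 for Clock and 6.16 for Npas2. At ZT 8 the same levels were 0.253, 2.82 and 0.0424 CPM per kilobase. On the HFD at ZT 0 they were 6.46, 7.20 and 4.46 CPM per kilobase, and at ZT 8 they were 0.304, 3.69 and 0.00443.

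The ratio of Npas2 to Clock within each library compares the alternative partners of BMAL1. Over the 6 liver libraries of ZT 0 the log2 ratio of CPM (prior count 2) was -1.94 ± 0.43 (SD) and ranged from -2.46 to -1.44. Over the 6 of ZT 8 it was -7.72 ± 0.98 and ranged from -9.10 to -6.71, with no overlap. The difference was 5.78 (two-sided exact permutation test, p = 0.00216, the smallest that 6 against 6 can give). Because the ZT 8 counts of Npas2 were 0 to 4, the size of this difference depends on the prior count.

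The log2 ratio of Arntl to Clock was -1.02 ± 0.18 (SD) at ZT 0 and -4.34 ± 0.65 at ZT 8, over 6 libraries each. The difference was 3.32 (two-sided exact permutation test, p = 0.00216), and the ZT 8 range, -5.12 to -3.42, lay below the ZT 0 range of -1.23 to -0.75. The raw p-values of both ratios are the smallest possible for the design, and adjusting over the pair leaves them equal at 0.00216.

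**Figure D2:**
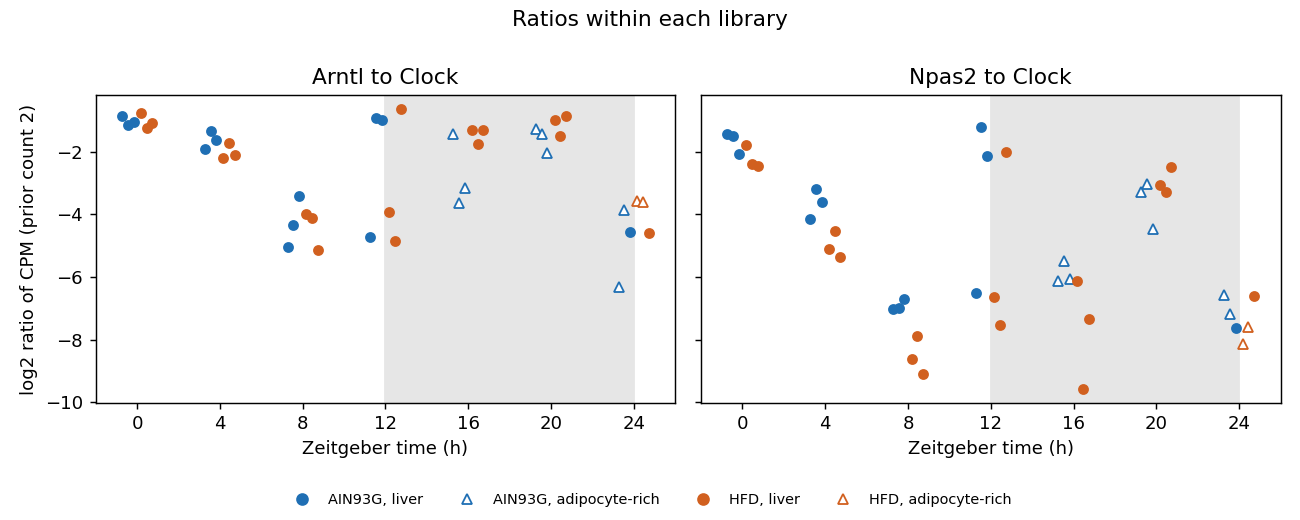
Log2 ratio of Arntl to Clock (left) and of Npas2 to Clock (right) in each library (vertical axis, CPM with a prior count of 2) by Zeitgeber time in hours (horizontal axis, dark phase shaded), with filled circles for liver and open triangles for adipocyte-rich libraries. Both ratios were lower in all 6 libraries of ZT 8 than in all 6 of ZT 0, and in the ratio of Npas2 to Clock the HFD livers of ZT 20 were above those of ZT 16.

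The study's main question was whether the HFD alters the daily course of transcripts. By quantitative PCR, with all its time points combined, it reported Bmal1 lower and Clock higher on the HFD. The test here used sequencing reads and only light-phase times, so it does not measure the same thing. Averaged over ZT 0, 4 and 8 in liver, none of the 3 genes passed the test of diet, which called 0.531% of genes. Arntl differed by a log2 fold change of -0.10 (HFD minus AIN93G, 95% interval -0.36 to 0.15, adjusted p = 0.756) and Clock by 0.08 (interval -0.17 to 0.33, adjusted p = 0.803). Npas2 differed by -1.66 (interval -2.53 to -0.79) with an unadjusted p of 0.000676 and an edgeR adjusted p of 0.0685. Its ZT 8 term, -2.82 ± 1.18 (SE), rests on almost no counts, and averaged over ZT 0 and ZT 4 alone the difference was -1.08 ± 0.24 (adjusted p = 0.0995).

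Of these times, only ZT 4 had Npas2 values that did not overlap between the diets and lay above the limit of detection. The tests at ZT 0 and at ZT 8 called 0.00829% and 0.0332% of genes and none of the 3. At ZT 0 the difference was -0.46 ± 0.32 (SE) on the log2 scale and the diets overlapped. At ZT 4 it was -1.71 ± 0.36, and every HFD library (1.78 to 2.68 CPM) lay below every AIN93G library (4.07 to 10.3 CPM), with an edgeR adjusted p of 0.342 where 0 genes were called (396 had an unadjusted p under 0.05). At ZT 8 the groups held 9 counts and 1 count in all, each library being at or near the limit of detection, and no difference is read from them. The averaged difference, which includes ZT 8, passed under some other settings. Its edgeR adjusted p was 0.039 on the groups compared alone, where 65 of 12048 genes were called. With no filter on low counts it was 7.73e-05, where 734 of 29580 genes were called. The DESeq2 adjusted p was 0.0119, where 242 of 12056 genes were called, against 64 of 12056 in the main fit. The averaged difference did not pass with other scaling, with all livers or all libraries fitted, or in limma-voom.

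For Arntl at ZT 4 the diet difference was -0.67 ± 0.19 (SE) on the log2 scale (edgeR unadjusted p = 0.00193, adjusted p = 0.931), and HFD values of 17.4 to 19.7 CPM overlapped the lowest AIN93G library at 19.5 CPM. Dbp, a direct target of the BMAL1 pairs, was at 2.20 ± 0.43 in the same comparison (adjusted p = 0.299). The diet-by-time test over ZT 0, 4 and 8 called 0 of 12056 genes, and its unadjusted p was 0.00891 for Arntl, 0.0229 for Npas2 and 0.135 for Clock (adjusted p = 0.999 for each). In all, 410 genes had an unadjusted p under 0.05 in it. With no filter on low counts Npas2 passed that test (adjusted p = 0.0371).

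On the HFD, where ZT 16 and ZT 20 were liver, the 3 genes rose again from ZT 8 to ZT 20. At ZT 20 the values of Arntl and Clock lay near or among those of ZT 0, while those of Npas2 lay below every ZT 0 library. Arntl was at 22.4, 26.05 and 30.2 CPM at ZT 16 and at 47.1, 47.3 and 44.7 CPM at ZT 20. Clock was at 55.1, 87.9 and 75.3 CPM at ZT 16 and at 93.3, 132 and 80.3 CPM at ZT 20. Npas2 held 11, 0 and 6 counts at ZT 16 (0.67, 0 and 0.35 CPM) and stood at 11.1, 13.5 and 14.1 CPM at ZT 20. Arntl was thus well above its ZT 8 values at ZT 16 in every library, while Npas2 was at or near the limit of detection.

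From ZT 8 to ZT 20 all 3 genes rose by edgeR's test, at log2 fold changes of 4.34 ± 0.23 (SE) for Arntl, 8.74 ± 0.66 for Npas2 and 1.00 ± 0.21 for Clock (adjusted p = 9.36e-11, 3.64e-08 and 0.0064), where 3.05% of genes were called higher. This comparison and the light-phase comparison share the HFD ZT 8 libraries. The Clock call was lost without HFD ZT 20 replicate 2, whose 132 CPM was the highest Clock value of the series (log2 fold change 0.76). For Npas2 the summed counts were 556 at ZT 20 and 1 at ZT 8, a ratio of 589 with an exact 95% interval of 105 to 23320.

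From ZT 16 to ZT 20 only Npas2 passed, with 556 against 17 counts, a ratio of 34.98 (exact 95% interval 21.6 to 60.5) and an edgeR log2 fold change of 5.13 ± 0.45 (adjusted p = 2.13e-06), where 0.116% of genes were called higher. Arntl was at 0.83 ± 0.19 (adjusted p = 0.0772, and 0.00733 by DESeq2) with no overlap between the groups, and Clock by 0.49 ± 0.21 (adjusted p = 0.481). For ZT 0 minus ZT 20 none of the 3 was called, with 95% intervals of -0.31 to 0.45 for Arntl, -0.47 to 0.39 for Clock and 0.06 to 1.398 for Npas2 (adjusted p = 0.963, 0.986 and 0.618).

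Between ZT 4 and ZT 16, which lie 12 hours apart, Npas2 was the only one of the 3 called. Npas2 was lower at ZT 16 than at ZT 4 on the HFD, with 17 against 101 counts, a ratio of ZT 4 to ZT 16 of 6.06 (exact 95% interval 3.60 to 10.8) and an edgeR log2 fold change of -2.60 ± 0.48 (adjusted p = 0.00444), where 1.79% of genes were called lower. Arntl was higher at ZT 16 in every library, by 0.51 ± 0.19 (adjusted p = 0.146), and Clock differed by -0.04 (95% interval -0.47 to 0.40, adjusted p = 0.955). Against ZT 0, ZT 16 was lower for Arntl by -0.90 ± 0.19 and for Npas2 by -5.86 ± 0.45 (adjusted p = 0.00791 and 1.37e-07), where 1.63% of genes were called lower, and Clock was at -0.45 ± 0.21 (adjusted p = 0.265). With all 32 livers in the fit, the calls were lost for Npas2 at ZT 16 minus ZT 4 and at ZT 20 minus ZT 16, for Clock at ZT 20 minus ZT 8 and for Arntl at ZT 16 minus ZT 0 (adjusted p = 0.368, 0.649, 0.0735 and 0.624). Their log2 fold changes then were -2.60, 5.12, 1.00 and -0.89.

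**Figure D3:**
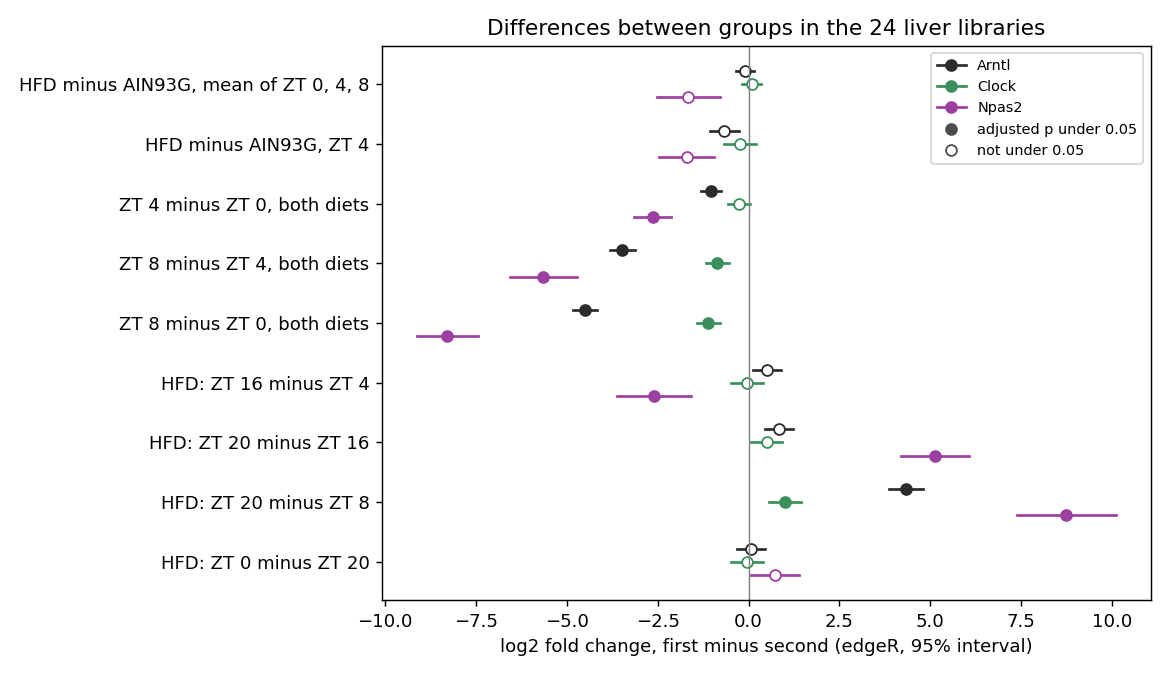
Log2 fold change of Arntl, Clock and Npas2 (horizontal axis, first group minus second, with 95% intervals from edgeR) for 9 comparisons in the 24 liver libraries (vertical axis), with filled points where the adjusted p was under 0.05. The 3 genes were called together at ZT 8 minus ZT 0 and at ZT 20 minus ZT 8, and none was called for diet.

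A cosine with a period of 24 hours was fitted to the 18 HFD liver libraries of ZT 0 to ZT 20 by limma on log2 CPM. It was called for all 3 genes and for 8.67% of the 12008 genes tested. Arntl had an amplitude of 2.23 on the log2 scale and a fitted peak at ZT 21.4 (adjusted p = 0.00156). Clock had an amplitude of 0.65 and a peak at ZT 22.3 (adjusted p = 0.00258), and Npas2 an amplitude of 3.16 and a peak at ZT 22.7 (adjusted p = 0.00646). Without the ZT 12 libraries the amplitudes were 2.26, 0.56 and 4.53, and the share of variance explained rose from 0.698 to 0.902 for Arntl and from 0.611 to 0.956 for Npas2. A period of 12 hours was called for 0 genes (916 had an unadjusted p under 0.05), with adjusted p = 0.891, 0.954 and 0.793 for Arntl, Clock and Npas2. On AIN93G no such fit was made, as liver libraries there covered ZT 0 to ZT 12 and 1 library of ZT 24. On the HFD the 1 liver library of ZT 24 was left out of the fit. In it Arntl was at 1.29 CPM, Clock at 33.5 CPM and Npas2 at 3 counts, low values at an hour when the fitted curves are high.

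Ordered by mean over the 8 groups, Arntl was highest in HFD ZT 0, HFD ZT 20 and AIN93G ZT 0 (48.6, 46.3 and 45.9 CPM), whose ranges overlapped. AIN93G ZT 4 and HFD ZT 16 came next (29.2 and 26.2 CPM) and overlapped each other, followed by HFD ZT 4 (18.4 CPM) and, after a wide gap, by HFD ZT 8 and AIN93G ZT 8 (2.29 and 1.90 CPM). For Clock each group overlapped the next from HFD ZT 20 (102 CPM) down to AIN93G ZT 8 (38.7 CPM). For Npas2 the order ran from AIN93G ZT 0 (29.5 CPM) and HFD ZT 0 (21.4 CPM), which overlapped, through HFD ZT 20, AIN93G ZT 4 and HFD ZT 4 (12.9, 7.29 and 2.24 CPM), which did not, to HFD ZT 16 and AIN93G ZT 8 (0.341 and 0.203 CPM), which overlapped, and HFD ZT 8 (0.0212 CPM).

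At ZT 12, lights off, the 6 liver libraries fell into separate levels that crossed the diets. Arntl was at 1.28 CPM in AIN93G replicate 1 and at 47.4 and 51.6 CPM in AIN93G replicates 2 and 3. On the HFD it was at 1.98 and 1.04 CPM in replicates 1 and 2 and at 42.5 CPM in replicate 3. Npas2 split the same way, at 0.285 CPM against 39.3 and 23.3 CPM on AIN93G and at 0.205 and 0.0651 CPM against 16.3 CPM on the HFD. Clock was at 36.7 CPM against 90.3 and 103 CPM on AIN93G, and at 31.5 and 33.2 CPM against 66.4 CPM on the HFD. For Arntl and Npas2 the 3 low libraries were thus near the values of ZT 8 and the 3 high ones near those of ZT 0 or ZT 20. For Clock HFD replicate 3 lay below every liver of ZT 0 and ZT 20, next to the highest of ZT 8 at 63.7 CPM.

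Other clock genes divided these libraries in the same way. Dbp was at 114 CPM in AIN93G replicate 1 and at 0.404 and 0.142 CPM in AIN93G replicates 2 and 3, and on the HFD it was at 70.1 and 88.2 CPM in replicates 1 and 2 and at 0.144 CPM in replicate 3. Nr1d2, which encodes a REV-ERB receptor, was at 162, 6.20 and 17.9 CPM in AIN93G replicates 1, 2 and 3 and at 103, 143 and 13.8 CPM in those of the HFD. Each library low in Arntl was thus high in both. The labels place 4 of the 6 in the dark phase and 2 in the light phase. Both light-phase libraries, AIN93G replicate 2 and HFD replicate 3, were high in Arntl, as was 1 of the 4 dark-phase ones. The part of this label in the split was not tested.

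As labelled, the test of diet at ZT 12 over 32 livers called 0 genes (896 had an unadjusted p under 0.05). The log2 differences were -1.14 ± 0.80 (SE) for Arntl, -1.93 ± 0.96 for Npas2 and -0.80 ± 0.30 for Clock (adjusted p = 0.736, 0.666 and 0.608). Without HFD replicate 3, which left only the HFD libraries low in Arntl, those of Arntl and Npas2 became -4.47 and -7.21 and passed. The share of all genes called in that fit was not counted. ZT 12 minus ZT 8 was called for Arntl (3.44 ± 0.67, adjusted p = 0.00844) and Npas2 (7.07 ± 1.17, adjusted p = 0.00213), where 0.592% of genes were called higher. Without HFD replicate 3 these fell to 1.78 and 4.43 and were lost, so that 1 library decided each call.

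All 6 libraries of ZT 24 were low in Arntl, although ZT 24 is the same clock hour as ZT 0. In liver Arntl was at 0.873 CPM in AIN93G replicate 3 and at 1.29 CPM in HFD replicate 3, against 43.8 to 51.2 CPM in the 6 libraries of ZT 0. Clock was at 23.05 and 33.5 CPM in these livers, against 85.7 to 107 CPM. Npas2 had 0 and 3 counts, where a count of 0 allows up to 3 counts. Dbp, which was at 0.282 to 0.941 CPM at ZT 0, was at 174 and 77.1 CPM in these livers. With 1 liver library per diet no test was made.

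The adipocyte-rich libraries also varied with time. Arntl was at 10.9, 3.66 and 6.21 CPM at AIN93G ZT 16 and at 32.6, 30.3 and 21.3 CPM at AIN93G ZT 20, with no overlap. At ZT 24 it was at 0.508 and 1.88 CPM on AIN93G and at 2.65 and 3.05 CPM on the HFD. Npas2 was at 0.302, 0.934 and 0.728 CPM at AIN93G ZT 16 and at 8.04, 9.94 and 3.88 CPM at ZT 20. Clock was at 29.4, 47.1 and 56.0 CPM at ZT 16 and at 78.7, 81.7 and 88.4 CPM at ZT 20.

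In edgeR's fit of these 10 libraries ZT 20 exceeded ZT 16 by log2 fold changes of 1.98 ± 0.50 (SE) for Arntl, 3.45 ± 0.74 for Npas2 and 0.89 ± 0.26 for Clock. None was called (adjusted p = 0.679 for each), where 0.00711% of genes were. DESeq2 called Arntl and Npas2 (adjusted p = 0.0279 and 0.000178). The share of all genes that DESeq2 called in these libraries was not counted, so its calls cannot be set against it. Brown adipocyte markers summed to 39.98 to 867 CPM, lymphocyte markers to 15.4 to 1046 CPM and skeletal muscle markers to 10.04 to 8264 CPM among the 10, and their part in these values was not tested. In bulk samples fewer cells of a type and less RNA per cell cannot be told apart.

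The labelled diet comparison at ZT 16 and ZT 20 set adipocyte-rich AIN93G libraries against HFD livers, so diet and tissue cannot be told apart there. It called 57.7% of genes at ZT 16 and 56.8% at ZT 20. For Arntl the log2 difference was 1.92 at ZT 16 (adjusted p = 0.0454) and 0.72 at ZT 20 (adjusted p = 0.446). For Clock it was 0.72 (adjusted p = 0.0495) and 0.30 (adjusted p = 0.429), and with scaling by library size alone it turned to -0.10 and -0.32. For Npas2 it was -0.86 and 0.82 (adjusted p = 0.571 and 0.506). With this share of all genes called, nothing is read from a call of 1 of the 3 genes.

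Opposite to the 3 genes, most of their repressors and targets rose from ZT 0 to ZT 8. Of the 8 period and cryptochrome repressors tested of 9 listed, 6 rose and 1 fell, with a median log2 fold change of 1.46 where the median of all genes was near 0 and 6.92% of genes were called higher. Per3 rose by 5.39 ± 0.34 (SE), Ciart by 4.69 ± 0.37 and Per2 by 1.53 ± 0.27 (adjusted p = 4.77e-10, 1.31e-08 and 0.000483). Cry1, the late repressor of the loop, was the exception at -2.10 ± 0.23 (adjusted p = 1.73e-06), the direction of Arntl.

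Of the 4 REV-ERB and ROR receptors tested, the REV-ERB genes rose, Nr1d1 by 3.92 ± 0.30 and Nr1d2 by 3.45 ± 0.19 (adjusted p = 6.74e-09 and 5.92e-11), and Rora, an activator at RORE sites, fell, at -0.45 ± 0.11 (adjusted p = 0.0092). Nr1d1 went from 2.53 to 10.8 CPM at ZT 0 to 58.4 to 131 CPM at ZT 8. All 4 genes of the list of PAR bZIP factors and their antagonist Nfil3 were called, where 13.8% of all genes were. Dbp, Tef and Hlf, which activate at D-boxes, rose by 7.87 ± 0.42, 3.54 ± 0.19 and 0.96 ± 0.12, and Nfil3, the repressor at the same sites, was at -2.23 ± 0.15 (adjusted p = 4.36e-11, 4.36e-11, 7.25e-06 and 1.84e-09).

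Already at ZT 4, when Clock was not called, Nr1d1 was 3.48 ± 0.29 and Nr1d2 2.39 ± 0.19 above ZT 0 on the log2 scale (adjusted p = 4.46e-07 and 2.24e-07), and Dbp was 4.57 ± 0.42 above (adjusted p = 1.4e-06), where 0.39% of genes were called higher. Per2 was not called in this step. Between ZT 4 and ZT 8 Ciart, Usp2 and Wee1 made most of their rise, at 5.14 ± 0.39, 3.75 ± 0.35 and 2.46 ± 0.28 (adjusted p = 6.08e-08, 5.12e-07 and 7.42e-06), where 2.12% of genes were called higher. These calls held with all 32 livers apart from Dbp at ZT 4 minus ZT 0 (adjusted p = 0.0733), and 2 of 8 listed genes called at that step and 9 of 18 called at the later step were also called.

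Of the 8 metabolic genes known to be bound by the BMAL1 pairs, 5 rose from ZT 0 to ZT 8 averaged over the diets and none fell (median 0.93), where 6.92% of genes were called higher. They were Wee1, a kinase that delays mitosis, at 2.54 ± 0.28, Alas1, the rate-limiting enzyme of haem synthesis, at 2.19 ± 0.32, Gys2, the liver glycogen synthase, at 1.47 ± 0.10, Nampt, the rate-limiting enzyme of NAD salvage, at 0.95 ± 0.15, and Pnpla2, a triglyceride lipase, at 0.91 ± 0.16 (adjusted p = 1.61e-06, 7.44e-05, 2.69e-09, 0.00017 and 0.000544). Within the diets Alas1 and Pnpla2 were called on AIN93G but not on the HFD, and the diet-by-time test called neither. Among genes for proteins that act on the clock proteins, the share called was near the 13.8% of all genes. Of 9 kinases and ubiquitin enzymes Usp2, a deubiquitinase gene, was called (4.16 ± 0.35, adjusted p = 4.44e-08). Of 12 coactivators and chromatin partners Kat2b was at 0.32 ± 0.08 and Ncor1, a co-repressor of REV-ERB, at -0.37 ± 0.12 (adjusted p = 0.0144 and 0.0446), and the others were not called.

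Of 13 other bHLH-PAS genes listed, relatives of the 3 in structure, 5 passed the filter on low counts. Of these Hif1a, the oxygen-sensing factor, was called, at 0.33 ± 0.10 (adjusted p = 0.0396), where 13.8% of genes were, but not on the groups compared alone (adjusted p = 0.114). It was called in 15 of 24 fits that left out 1 library. The median of the 5 was 0.0045. With all 32 livers fitted, 20 of the 23 listed genes called at ZT 8 minus ZT 0 were also called, and Cry2, Nampt and Ncor1 were not (adjusted p = 0.123, 0.0514 and 0.0512).

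In the dark phase of the HFD the repressors were at other points of their course. At ZT 16 compared with ZT 4, Per2, Cry1 and Per3 were higher by 2.51 ± 0.38, 2.01 ± 0.32 and 1.61 ± 0.39 on the log2 scale (adjusted p = 0.00116, 0.00142 and 0.0275). In all, 5 of the 8 repressors tested were called higher, where 1.23% of genes were. Nr1d1 was lower by a log2 fold change of -4.09 ± 0.43 (adjusted p = 1.45e-05). Dbp was lower at -1.95 ± 0.43 (adjusted p = 0.0136). With all 32 livers 6 of the 13 listed genes called here were also called, among them Per2, Cry1 and Nr1d1, while Per3 and Dbp were not (adjusted p = 0.421 and 0.468).

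From ZT 16 to ZT 20, when Npas2 rose, 2 of the listed genes were called, neither of them with all 32 livers or on the groups compared alone. Nr1d2 fell from 41.8, 96.3 and 39.1 CPM to 12.2, 16.6 and 14.2 CPM, a log2 fold change of -2.03 ± 0.26 (adjusted p = 0.000381), and Gys2 was at -0.72 ± 0.15 (adjusted p = 0.049), where 0.0249% of genes were called lower. With all 32 livers the adjusted p was 0.675 for Nr1d2 and 0.741 for Gys2, and Gys2 was called in 6 of 24 fits that left out 1 library. Cry1 was at 61.6 to 65.4 CPM at ZT 16 and at 79.9 to 98.8 CPM at ZT 20, the highest values of the 32 livers. From ZT 20 to ZT 0, when none of the 3 genes was called, Per2, Per3, Tef and Usp2 fell, at -2.22 ± 0.38, -3.50 ± 0.47, -2.13 ± 0.26 and -2.70 ± 0.48 (adjusted p = 0.016, 0.000981, 0.000265 and 0.0215), where 0.0747% of genes were called lower. None of these 4 was called with all 32 livers (adjusted p = 0.409, 0.493, 0.55 and 0.705).

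**Figure D4:**
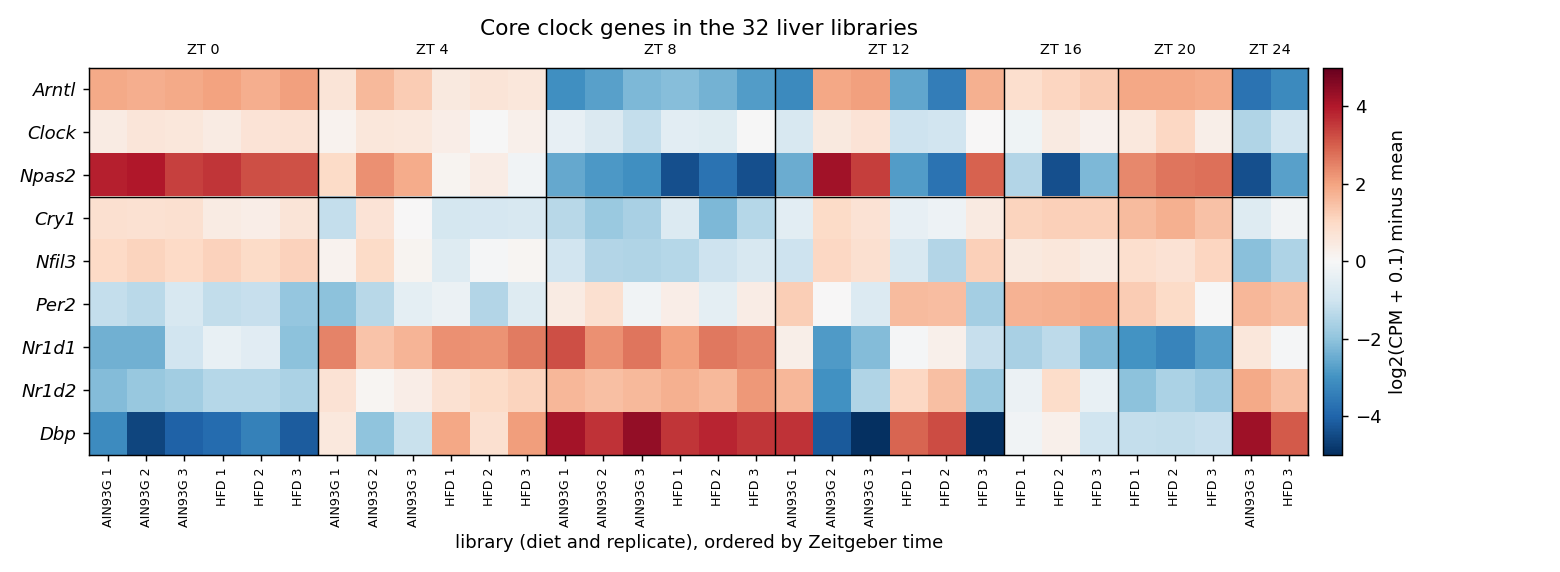
Level of 9 clock genes (rows) in the 32 liver libraries (columns, ordered by Zeitgeber time and then by diet and replicate), as log2(CPM + 0.1) minus the gene's mean over these libraries, with red for higher and blue for lower values and colours limited to 5 either way. At ZT 8, and within ZT 12, Arntl, Npas2, Cry1 and Nfil3 were low in the libraries where Dbp and Nr1d2 were high.

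Across the 32 livers the 3 genes moved together, with Pearson r of log2 CPM of 0.908 for Arntl with Clock, 0.859 for Arntl with Npas2 and 0.786 for Clock with Npas2. These describe libraries that share time points and depth, and carry no p. Among 12000 genes the 5 most like Arntl were Chka, a choline kinase, Tubb2a, a tubulin, Cgn, a tight junction protein, Nfil3 and St5 (r = 0.975, 0.974, 0.964, 0.953 and 0.952), and the 4 most opposite were Coq10b, Gys2, Slc5a6 and Slc41a3 (r = -0.942, -0.942, -0.923 and -0.913).

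The genes most like Npas2 were Loxl4, Clpx, Grk5, Dpp9 and St3gal1 (r = 0.961, 0.910, 0.906, 0.904 and 0.895), and the most opposite were the clock genes Tef, Per3, Nr1d2 and Dbp together with Gys2 (r = -0.931, -0.920, -0.901, -0.900 and -0.903, n = 32). For Clock they were Caprin1, Selenoi, Mical2, Chka and Gm30301 (r = 0.944, 0.927, 0.926, 0.915 and 0.914) and, among the most opposite, Vdac2, Gys2, Slc25a11 and Cyth1 (r = -0.894, -0.892, -0.887 and -0.865). Gys2 was among the 5 most opposite genes for each of the 3, and Chka among the 5 most alike for Arntl and Clock. Without the 6 libraries of ZT 12 these r changed by at most 0.033.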

How the data were processed

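The members and gene lists were chosen with earlier results of these data known. The authors deposited 1 table of raw read counts per gene (paired-end, poly(A)-selected libraries). Per the submitters' processing notes, mm10 and the tools fastp, STAR and HTSeq 0.6.1 were used. The strand setting and annotation release are not given in the sources used here, so reads of overlapping genes may be shared. Groups came from the labels for diet and time point. Counts were scaled by TMM, and genes averaging 25 counts or more over the fitted libraries were tested with edgeR 4.0.16 (quasi-likelihood, R 4.3.3), with Benjamini-Hochberg adjustment over all genes and a threshold of 0.05. Liver meant Alb over 10000 CPM. Alternatives were DESeq2 1.42.0, limma-voom, other scaling, filters and sets of libraries, and leaving out each library. Cosines used limma 3.58.1. Exact intervals are Clopper-Pearson (95%), and a count of 0 allows 3 counts. Replicate libraries differed beyond counting noise. Scripts were tested on simulated data. No sequences of proteins were used here.

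Named genes were the members, up to 4 listed genes per list and comparison with the largest called change, loop genes set beside the members, and the 5 genes most and least correlated with each member. A few genes that this rule names are not reported here.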

Additional observations from a re-analysis of the deposited data

How the results depend on the processing

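No paired analysis was possible because replicate numbers were given in accession order. The numbers in the library names recur in 6 pairs of the 24 livers across time groups, and with them as fixed terms 0 residual degrees of freedom are left. Over 12056 genes the deviations from the group means of these pairs correlated at -0.142 to 0.236. By the study's methods livers were taken at termination, so by their labels libraries of different times came from different mice. The numbers were therefore not taken to pair the samples, and whether they mark another shared factor is not stated. As a random block in limma-voom, added after seeing the data, with a correlation of 0.0972, the genes called for averaged diet became 42, and Arntl at ZT 20 minus ZT 16 passed (0.84), as it did in limma-voom without the block (0.84). The direction of every called difference of the 3 genes held in every alternative run, except for Clock at ZT 16 as labelled. The light-phase fall of Arntl, Npas2 and Clock from ZT 0 to ZT 8, averaged over the diets, and the ZT 8 to ZT 20 rise of Arntl and Npas2 stayed called in each alternative in which they could be fitted, as did the 24 h cosines. With at least 25 counts in every library, Arntl and Npas2 left the table and have no value. The causes of the changes below were not tested. At ZT 8 Npas2 had 0 to 4 counts per library, so depth limits what can be said of it.

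With no filter on low counts, Npas2 gained calls for diet averaged over ZT 0, 4 and 8 (-1.68), for diet at ZT 4 (-1.71) and for diet by time (F = 8.07), and Arntl for diet at ZT 4 (-0.67) and for ZT 20 minus ZT 16 (0.82). With DESeq2 Npas2 gained the averaged diet call (-1.77) and that at ZT 4 (-1.71), Arntl gained ZT 20 minus ZT 16 (0.82), and in the adipocyte-rich libraries Arntl and Npas2 gained ZT 20 minus ZT 16 (1.96 and 3.45). On the groups compared alone Npas2 gained the averaged diet call (-1.66), and ZT 12 minus ZT 8 was lost for Arntl and Npas2 (3.44 and 7.07).

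With all 32 livers fitted, calls were lost for Arntl and Npas2 at ZT 4 minus ZT 0 (-1.03 and -2.63), Clock at ZT 8 minus ZT 0 on the HFD (-0.96), Npas2 at ZT 16 minus ZT 4 (-2.60) and ZT 20 minus ZT 16 (5.12), Clock at ZT 20 minus ZT 8 (1.00) and Arntl at ZT 16 minus ZT 0 (-0.89). With all 42 libraries the same calls were lost (-1.03, -2.63, -0.96, -2.63, 5.15, 1.01 and -0.89), and also Clock at ZT 8 minus ZT 4 (-0.87) and at ZT 8 minus ZT 0 on AIN93G (-1.27) and Npas2 at ZT 16 minus ZT 0 (-5.88). With scaling by library size, an alternative added after seeing the data for the labelled comparisons, Arntl at ZT 16 was lost (1.06) and Clock turned to -0.10 at ZT 16 and to -0.32 at ZT 20. Clock at ZT 0 minus ZT 20, never called, turned to 0.013.

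Counts of called genes moved as well. For diet averaged over ZT 0, 4 and 8 they were 64 among all genes and 0 among the listed clock genes, and became 734 and 10 with no filter, 242 and 2 with DESeq2, 17 among all genes with 32 livers and 0 with 42 libraries. Averaged over ZT 0 and ZT 4 alone, an alternative added after seeing the data, 14 genes were called, and Clock, called in neither, turned to -0.071. For ZT 8 minus ZT 0 they were 1667 and 23, and became 320 and 15 with 42 libraries. For ZT 16 minus ZT 4 on the HFD they were 364 and 13. They became 897 and 23 with no filter, 669 among all genes with DESeq2, 191 and 6 with 32 livers, 21 and 3 with 42 libraries, 147 among all genes on the groups compared alone, and 8 listed genes with 25 counts in every library. For ZT 20 minus ZT 8 they were 670 and 13. They became 1096 among all genes with no filter, 291 and 6 with 32 livers, 36 and 4 with 42 libraries, 335 among all genes on the groups compared alone, and 8 listed genes with 25 counts in every library. For ZT 20 minus ZT 16 they were 17 and 2. They became 318 and 14 with no filter, 79 among all genes with DESeq2, 0 and 0 with 32 livers and with 42 libraries, and 4 and 0 on the groups compared alone. Where edgeR called 0 genes, 604 had an unadjusted p under 0.05 for averaged diet with 42 libraries, and 814 and 381 for ZT 20 minus ZT 16 with 32 livers and with 42 libraries.

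Leaving out 1 library at a time changed a call or a sign of the 3 genes, or a count, in the following cases. For Npas2 the averaged diet difference ran from -2.28 to -1.51 and passed without AIN93G ZT 4 replicate 1 or HFD ZT 16 replicate 2. For Arntl ZT 20 minus ZT 16 ran from 0.73 to 0.93 and passed without AIN93G ZT 4 replicate 1 or 2. For Clock ZT 20 minus ZT 8 ran from 0.76 to 1.21 and was lost without HFD ZT 20 replicate 2, and ZT 8 minus ZT 0 on the HFD ran from -1.17 to -0.85 and was lost without HFD ZT 8 replicate 1. Clock, not called, crossed 0 at ZT 16 minus ZT 4 (-0.20 to 0.13) and at ZT 0 minus ZT 20 (-0.18 to 0.19). At ZT 12 HFD replicate 3 decided the Arntl and Npas2 values, whose diet differences ran from -4.47 to -0.58 and from -7.21 to -1.10, and whose ZT 12 minus ZT 8 differences ran from 1.78 to 3.72 and from 4.43 to 7.99. The Clock diet difference at ZT 12 ran from -1.24 to -0.53 and passed without AIN93G replicate 1. The counts of called genes ran from 28 to 100 for averaged diet, from 144 to 430 for ZT 16 minus ZT 4, from 6 to 25 for ZT 20 minus ZT 16 and from 359 to 709 for ZT 20 minus ZT 8. Those of listed genes ran from 0 to 1 for averaged diet and from 1 to 2 for ZT 20 minus ZT 16. Of the calls of listed genes given above by name, those not made in all 24 fits were Ncor1 (9) and Hif1a (15) at ZT 8 minus ZT 0, Gys2 (6) at ZT 20 minus ZT 16, Per3 (20) and Dbp (22) at ZT 16 minus ZT 4, and Per2 and Usp2 (19 each) at ZT 0 minus ZT 20.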
